A study of Homo sapiens with 4 samples.

Results

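The exons described here are the skipped exons of 10 genes of the SR protein family: SRSF2, SRSF3, SRSF4, SRSF5, SRSF6, SRSF7, SRSF10, SRSF11, TRA2A and TRA2B. An exon belonged to the set when at least 1 of its boundaries was that of an annotated exon of one of these genes (GENCODE release 29, hg38). Of 38121 skipped exons in the deposited files, 26 in 9 genes met this rule, measured by 32 splicing events. No event matched SRSF5, so it was not analysed here.

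The cells were MDA-LM2, a human breast cancer line selected for spread to the lung, and their RNA was sequenced. Per the labels, 2 libraries came from cells transfected with siRNA against SNRPB2 (siSNRPB2) and 2 from cells given control siRNA (siCtrl). Both groups were harvested 48 h after transfection with a lipid reagent, and the 2 chosen siRNAs lowered SNRPB2 by more than 95% in quantitative PCR. SNRPB2 encodes U2B'', which belongs to the U2 snRNP, the particle that pairs with the branch point ahead of the 3′ splice site. The question was which exons of the splicing regulators themselves were included differently when this protein was depleted.

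The files hold 1 value per exon and group, and the libraries and siRNAs cannot be told apart in them. No difference has a replicate check, and none was tested over replicates. The siSNRPB2 file held 42670 events with 93580246 reads and the siCtrl file 42159 events with 100579230 reads, and a read can count in several overlapping events. No event was assigned to SNRPB2, so the knockdown could not be checked in these files.

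SR proteins bind exonic sequences through RNA recognition motifs and recruit the splicing machinery through domains rich in arginine and serine. Most of their genes hold a poison exon, a cassette exon with a premature stop codon. Transcripts that include it are degraded by nonsense-mediated decay (NMD), and several SR proteins promote inclusion of their own poison exon, which limits their own level. In steady-state RNA, the splicing of a poison exon and the decay of its transcripts cannot be told apart by ψ.

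The sequences below show how these exons end the reading frame. Each runs from the first base of the exon to its annotated stop codon, which is in capitals, as read from GENCODE release 29 transcripts that are annotated as NMD targets. They cover 7 exons of 6 genes in which such a transcript has its stop codon. The SRSF2 104-nt, SRSF4 228-nt and SRSF11 109-nt exons lie after the stop codon of their NMD transcripts and are not shown.
SRSF3 456-nt exon, chr6:36599821-36599854, plus strand: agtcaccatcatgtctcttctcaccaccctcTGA
SRSF4 195-nt exon, chr1:29160018-29160058, minus strand: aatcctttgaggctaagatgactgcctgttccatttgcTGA
SRSF6 268-nt exon, chr20:43459153-43459304, plus strand: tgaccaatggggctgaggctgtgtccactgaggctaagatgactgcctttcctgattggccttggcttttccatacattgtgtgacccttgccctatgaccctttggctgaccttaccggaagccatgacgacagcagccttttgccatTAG
SRSF7 276-nt exon, chr2:38749152-38749173, minus strand: ggcagaaaatttgagacggTGA
SRSF7 449-nt exon, chr2:38749319-38749346, minus strand: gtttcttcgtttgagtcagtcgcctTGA
SRSF11 117-nt exon, chr1:70231859-70231908, plus strand: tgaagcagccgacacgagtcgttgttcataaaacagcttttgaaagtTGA
TRA2B 276-nt exon, chr3:185931772-185931852, minus strand: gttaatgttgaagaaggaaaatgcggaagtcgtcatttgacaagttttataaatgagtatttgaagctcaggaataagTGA

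The SRSF4 and SRSF6 poison exons share an unbroken stretch of 20 bases, tgaggctaagatgactgcct, which starts at base 8 of the SRSF4 195-nt exon and at base 29 of the SRSF6 exon. A search of 18033 tested exons for identical stretches of 20 bases found no other gene with an exon that shares one with either.

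Inclusion is given as ψ, the share (0 to 1) that the isoform with the exon takes of the 2 isoforms of an event, as estimated by the authors, with the interval in their files, whose level is not given in the sources used here. It is not a share of all the gene's transcripts, and forms of one exon can sum past 1. Reads that fit only the isoform with the exon are called inclusion-only, and those that fit only the isoform without it exclusion-only; both kinds are informative. Exons with 20 or more informative reads in both files are referred to as tested. A call required that the authors' deposited table give a Bayes factor, the evidence for a difference over none, of 10 or more and a ψ difference of 0.1 or more. Of the 26 exons 25 were tested, in 9 genes. The remaining one is a 33-nt exon of SRSF11, at chr1:70222766-70222798, where 13 reads in siSNRPB2 and 26 in siCtrl skipped it and none included it.

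Of the 25 tested exons, 4 were called lower in siSNRPB2 and 1 higher. They were 109-nt and 117-nt exons of SRSF11, a 54-nt exon of SRSF10 and a 189-nt exon of TRA2A, all lower, and the 276-nt poison exon of TRA2B, which was higher. Among all 18682 tested exons 7.61% were called lower and 7.13% higher (14.7% together). With 5 of 25 exons called, several of which share reads, the share is near this background. The median ψ difference was -0.01 over the 25 exons and 0 over all tested exons.

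These exons were read more deeply than most. The median tested exon of the set had 477 informative reads in siSNRPB2 and 640 in siCtrl, against 137 and 158 over all tested exons. A Bayes factor of at least 10, whatever the ψ difference, was reached by 9 of the 25 exons (36.0%) and by 19.4% of all tested exons in the authors' deposited table. Whether this share depends on depth was not tested.

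**Figure D1:**
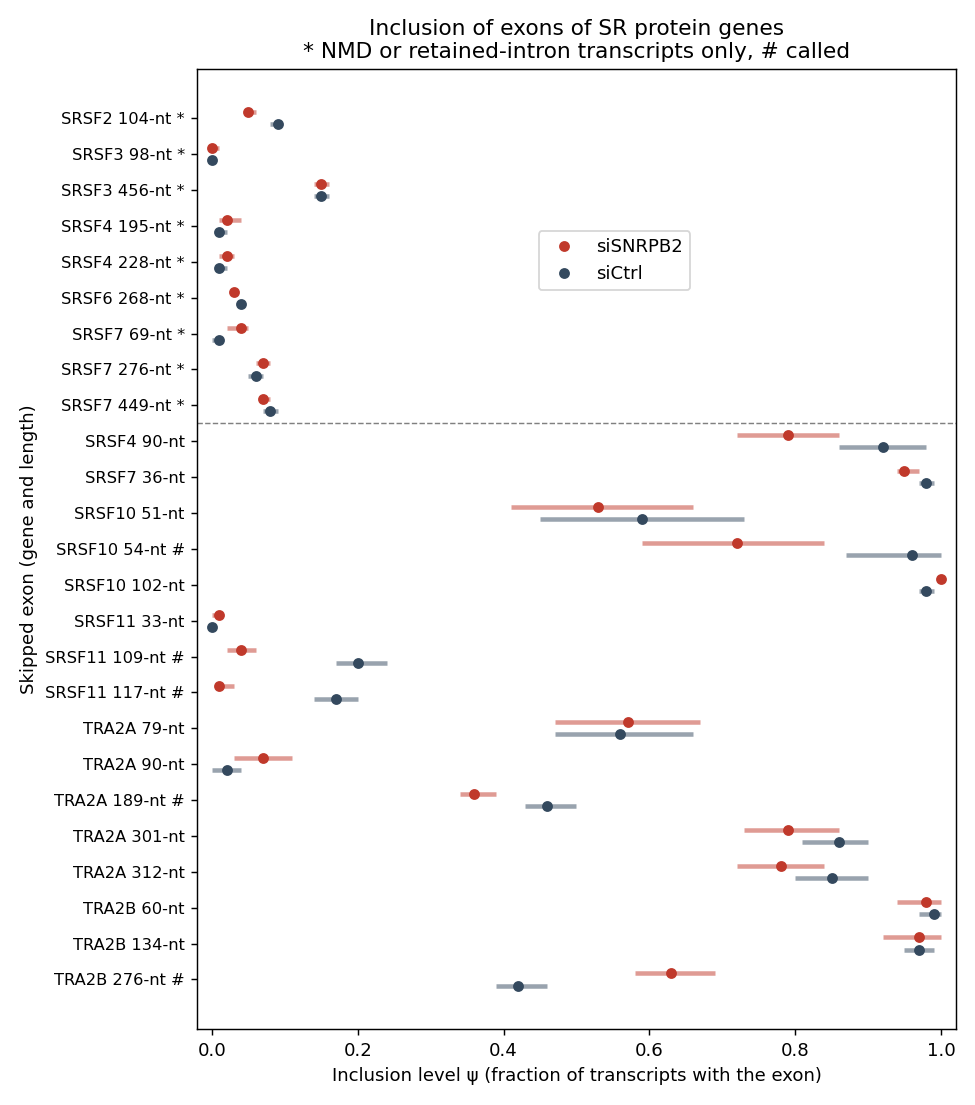
Inclusion level ψ (x axis, fraction) of the 25 tested exons, with the authors' interval as a bar, in siSNRPB2 (red, upper point) and siCtrl (dark, lower point). The 9 exons above the dashed line, marked with an asterisk, occur only in NMD or retained-intron transcripts and lie at 0.15 or less in both groups, and called exons carry a hash sign.

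Of the 4 lower exons, 2 belong to SRSF11, an SR-related protein that interacts with U2 auxiliary factors. A pair of cassette exons lies in tandem between the same flanking exons, at chr1:70228422-70228555 and chr1:70232268-70232377. The upstream one is the 109-nt exon at chr1:70231095-70231203, which shares a boundary with 1 NMD and 3 processed transcripts. Its ψ was 0.04 (0.02 to 0.06) in siSNRPB2 and 0.2 (0.17 to 0.24) in siCtrl. In siSNRPB2 16 reads were inclusion-only and 121 exclusion-only, against 99 and 133 in siCtrl. The intervals do not overlap, and the drop lay in the inclusion-only reads.

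The downstream one is the 117-nt exon at chr1:70231859-70231975, whose stop codon is shown above and which shares a boundary with 2 NMD transcripts and 1 processed transcript. Its ψ was 0.01 (0.01 to 0.03) in siSNRPB2 and 0.17 (0.14 to 0.2) in siCtrl. It had 5 inclusion-only reads in siSNRPB2 and 86 in siCtrl, with the same 121 and 133 exclusion-only reads as its neighbour, since both are skipped by one junction. Its inclusion-only reads made up 3.97% of informative reads in siSNRPB2 (exact 95% interval 1.30 to 9.02, counting error only) and 39.3% in siCtrl (32.8 to 46.1). The intervals of both exons lie far apart.

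Each SRSF11 exon was also measured with the other exon as its neighbour, with the difference in the same direction. These events had 19 and 8 informative reads in siSNRPB2, under the minimum of 20, and the same 99 and 86 inclusion-only reads in siCtrl as above, so they are no separate support. With the 117-nt exon as the downstream neighbour, the ψ of the 109-nt exon was 0.14 (0.08 to 0.21) in siSNRPB2 and 0.59 (0.48 to 0.74) in siCtrl. With the 109-nt exon as the upstream neighbour, the ψ of the 117-nt exon was 0.08 (0.03 to 0.14) in siSNRPB2 and 0.42 (0.34 to 0.52) in siCtrl. Exclusion-only reads were lacking from these events in both files, so ψ there rests on how reads spread between the exons. In these 4 events of the 2 exons the authors' deposited table lists a Bayes factor of 1e+12. The SRSF11 33-nt exon farther downstream, at chr1:70247117-70247149 and in 1 processed transcript, was almost silent, since 4 reads included it and 415 skipped it in siSNRPB2, against 0 and 520 in siCtrl.

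TRA2B, a homologue of the Drosophila protein transformer-2 that binds GAA-rich exon sequences and promotes inclusion of its own poison exon, moved the other way. Its 276-nt poison exon at chr3:185931577-185931852 had a ψ of 0.63 (0.58 to 0.69) in siSNRPB2 and 0.42 (0.39 to 0.46) in siCtrl. The Bayes factor in the authors' deposited table was 1e+12. Exclusion-only reads numbered 18 in siSNRPB2 and 39 in siCtrl, while inclusion-only reads were nearly equal at 669 and 680. Reads compatible with both isoforms, which lie in the flanking exons, numbered 1400 in siSNRPB2 and 2140 in siCtrl. As a share of informative reads, inclusion-only reads were 97.4% in siSNRPB2 (exact 95% interval 95.9 to 98.4) and 94.6% in siCtrl (92.7 to 96.1). The direction was the same by reads, but the difference of the shares was 0.028 against 0.21 by ψ, and their intervals overlap.

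By annotation the TRA2B exon was not classed as NMD or retained only. Its boundaries are shared by 1 NMD transcript, 3 retained-intron transcripts, 1 processed transcript and 1 short protein-coding transcript that ends at the same stop codon. The coding exons of TRA2B stayed near full inclusion. The 134-nt exon had a ψ of 0.97 in siSNRPB2 and 0.97 in siCtrl, and the 60-nt exon 0.98 and 0.99. Skipping of the 134-nt exon was seen in 0 reads in siSNRPB2 and 6 in siCtrl.

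**Figure D2:**
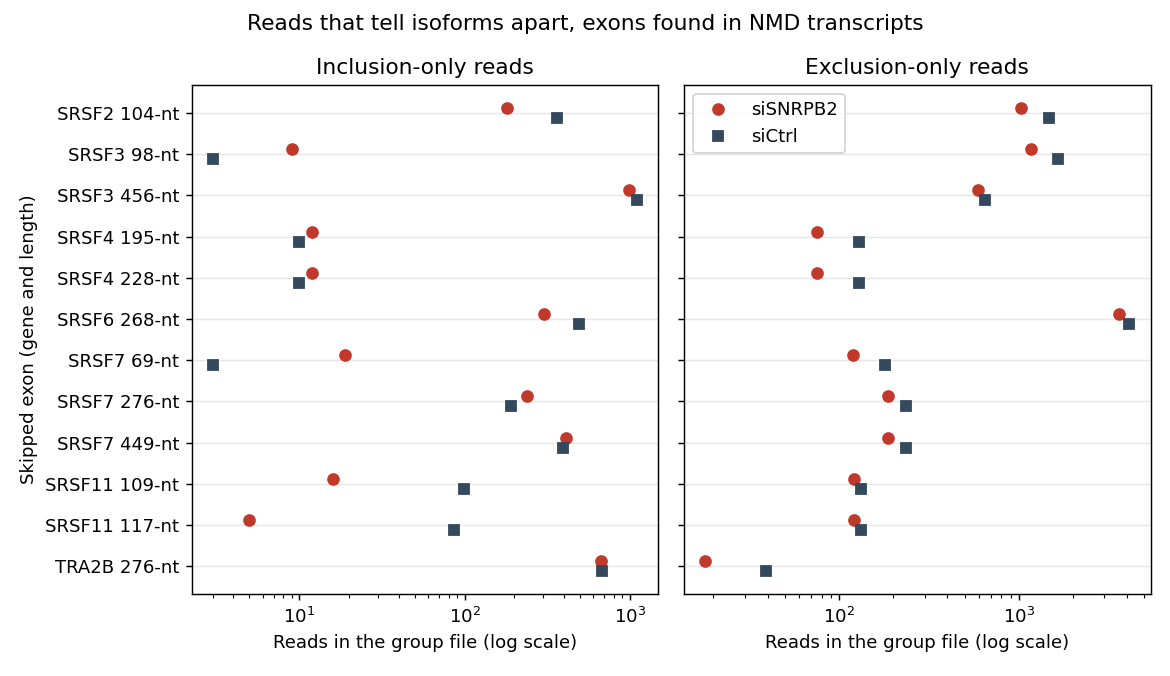
Inclusion-only (left) and exclusion-only reads (right) of 12 exons found in NMD transcripts, on log axes, in siSNRPB2 (red circles) and siCtrl (dark squares). Drawn are the 9 exons found only in NMD or retained-intron transcripts and the called exons of SRSF11 and TRA2B. Other tested exons that share a boundary with an NMD transcript are not drawn. The SRSF11 exons differ in inclusion-only reads (16 against 99 and 5 against 86) and the TRA2B exon in exclusion-only reads (18 against 39).

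The strict class, exons found only in NMD or retained-intron transcripts, held 9 tested exons of SRSF2, SRSF3, SRSF4, SRSF6 and SRSF7. None was called in either direction, against 9.14% of the 1401 tested exons of this class in all genes (3.85% lower and 5.28% higher). Their ψ lay between 0 and 0.15 in both groups, so for most of them a fall of 0.1 was not possible. A Bayes factor of at least 10 was reached by 3 of the 9, in SRSF2, SRSF6 and SRSF7, and by 20.4% of the class in all genes in the authors' deposited table.

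SRSF2, also known as SC35, binds exonic enhancers and controls its own level through splicing in its 3′ end. Its 104-nt exon at chr17:76735772-76735875 lies after the stop codon in its NMD transcript and shares a boundary with 2 retained-intron transcripts. Its ψ was 0.05 (0.05 to 0.06) in siSNRPB2 and 0.09 (0.08 to 0.09) in siCtrl. Inclusion-only reads numbered 180 in siSNRPB2 and 364 in siCtrl, and exclusion-only reads 1028 and 1472. The intervals do not overlap, and the Bayes factor was 3.05e+08 in the authors' deposited table, but the difference of -0.04 missed the minimum.

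SRSF6, a close relative of SRSF4 and SRSF5, had the most deeply read poison exon of the set, the 268-nt exon at chr20:43459153-43459420. Its ψ was 0.03 (0.03 to 0.03) in siSNRPB2 and 0.04 (0.04 to 0.04) in siCtrl. In siSNRPB2 303 reads included it and 3612 skipped it, against 491 and 4123 in siCtrl. The inclusion-only share was 7.74% in siSNRPB2 (exact 95% interval 6.92 to 8.62) and 10.6% in siCtrl (9.77 to 11.6), and the Bayes factor was 9.63e+03 in the authors' deposited table. The difference was thus small but in the same direction as in SRSF2 and SRSF11. The strict class as a whole had no common direction. Its ψ differences were below 0 for 3 exons, above 0 for 4 and at 0 for 2, some of them forms of one exon.

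SRSF7, which carries a zinc knuckle beside its RNA recognition motif, had 3 exons in the strict class. The 69-nt exon at chr2:38747062-38747130 had a ψ of 0.04 (0.02 to 0.05) in siSNRPB2 and 0.01 (0 to 0.01) in siCtrl, and the authors' deposited table lists a Bayes factor of 34.8. Its inclusion-only reads numbered 19 in siSNRPB2 and 3 in siCtrl, and its exclusion-only reads 120 and 181. This exon was thus higher in siSNRPB2, from few reads.

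The other 2 SRSF7 exons are forms of one poison exon with different 3′ splice sites, and the same reads, 187 in siSNRPB2 and 235 in siCtrl, skip both. The 276-nt form had a ψ of 0.07 (0.06 to 0.08) in siSNRPB2 and 0.06 (0.05 to 0.07) in siCtrl, with 239 and 192 inclusion-only reads. The 449-nt form had a ψ of 0.07 (0.07 to 0.08) in siSNRPB2 and 0.08 (0.07 to 0.09) in siCtrl, with 410 and 393 inclusion-only reads. The intervals overlap for both forms. Inclusion-only reads of the 276-nt form were 56.1% of informative reads in siSNRPB2 (exact 95% interval 51.2 to 60.9) and 45.0% in siCtrl (40.2 to 49.8), while ψ, which also uses the flanking reads, differed by 0.01.

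SRSF3, a small SR protein that also acts in mRNA export, had 2 such exons. The 456-nt exon at chr6:36599821-36600276 had a ψ of 0.15 (0.14 to 0.16) in siSNRPB2 and 0.15 (0.14 to 0.16) in siCtrl, the highest of the class. In siSNRPB2 982 reads included it and 595 skipped it, against 1104 and 649 in siCtrl. Inclusion-only reads were 62.3% of informative reads in siSNRPB2 and 63.0% in siCtrl. These shares lie far above ψ but, like ψ, were nearly equal in the groups. The 98-nt exon at chr6:36598429-36598526 was almost silent, with 9 inclusion-only reads in siSNRPB2 and 3 in siCtrl against 1176 and 1645 exclusion-only reads.

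SRSF4 had 195-nt and 228-nt forms of one exon that share a 5′ splice site and had the same reads. Inclusion-only reads numbered 12 in siSNRPB2 and 10 in siCtrl, and exclusion-only reads 75 and 129. The ψ of the 195-nt form was 0.02 (0.01 to 0.04) in siSNRPB2 and 0.01 (0.01 to 0.02) in siCtrl. The intervals overlap.

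The coding exons gave the other calls. SRSF10 acts as a splicing repressor when dephosphorylated and as an activator otherwise. Its 54-nt coding exon at chr1:23971573-23971626 has a second form that is 3 bases shorter at the 5′ end. The sequence shows the bases absent from the 51-nt form in capitals, minus strand.
SRSF10 54-nt exon: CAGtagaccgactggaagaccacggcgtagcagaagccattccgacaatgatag

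The SRSF10 54-nt form had a ψ of 0.72 (0.59 to 0.84) in siSNRPB2 and 0.96 (0.87 to 1) in siCtrl, and the Bayes factor was 104 in the authors' deposited table. The 51-nt form had a ψ of 0.53 (0.41 to 0.66) in siSNRPB2 and 0.59 (0.45 to 0.73) in siCtrl and was not called. Exclusion-only reads numbered 8 in siSNRPB2 and 0 in siCtrl for both forms, and inclusion-only reads of the 54-nt form 83 and 134. The event joins this exon to a 3377-nt downstream exon, with 5224 reads compatible with both isoforms in siSNRPB2 and 6535 in siCtrl, so few of its reads are informative. Another SRSF10 event, of a 102-nt exon at chr1:23971338-23971439, was skipped by 0 reads in siSNRPB2 and 14 in siCtrl. Its ψ was 1 (1 to 1) in siSNRPB2 and 0.98 (0.97 to 0.99) in siCtrl, which missed the minimum difference although the Bayes factor was 139 in the authors' deposited table.

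TRA2A is the close homologue of TRA2B. Its 189-nt coding exon at chr7:23512894-23513082 had a ψ of 0.36 (0.34 to 0.39) in siSNRPB2 and 0.46 (0.43 to 0.5) in siCtrl, and the authors' deposited table lists a Bayes factor of 3.2e+05. The difference of -0.1 lies at the threshold itself. Exclusion-only reads numbered 0 in siSNRPB2 and 11 in siCtrl, which is the opposite direction, and inclusion-only reads 1072 and 1032. Reads compatible with both isoforms numbered 3656 in siSNRPB2 and 2694 in siCtrl. The call therefore rests on reads in the flanking exons, and the share of inclusion-only reads was 100% in siSNRPB2 (exact 95% interval 99.7 to 100) and 98.9% in siCtrl (98.1 to 99.5).

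TRA2A also has a GAA-rich exon near its start, downstream of its first exon, in 3 overlapping forms. The 301-nt form at chr7:23522132-23522432 lies in the untranslated 5′ part of 2 protein-coding transcripts. Its ψ was 0.79 (0.73 to 0.86) in siSNRPB2 and 0.86 (0.81 to 0.9) in siCtrl, with 456 and 620 inclusion-only and 21 and 24 exclusion-only reads. The 312-nt form had nearly the same reads and a ψ of 0.78 in siSNRPB2 and 0.85 in siCtrl. The 79-nt form, which is coding in 1 NMD transcript, had a ψ of 0.57 (0.47 to 0.67) in siSNRPB2 and 0.56 (0.47 to 0.66) in siCtrl. None of the 3 forms was called.

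The TRA2A 79-nt form depended on the event. With a 90-nt exon as the upstream neighbour its ψ was 0.79 (0.6 to 0.91) in siSNRPB2 and 0.34 (0.23 to 0.48) in siCtrl, with 43 and 28 inclusion-only reads and no exclusion-only read in either file. That neighbour, at chr7:23531181-23531270, was itself rarely included, at a ψ of 0.07 (0.03 to 0.11) in siSNRPB2 and 0.02 (0 to 0.04) in siCtrl. It had 13 inclusion-only reads in siSNRPB2 and 3 in siCtrl.

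Just outside the thresholds lay a 90-nt coding exon of SRSF4 at chr1:29150103-29150192. Its ψ was 0.79 (0.72 to 0.86) in siSNRPB2 and 0.92 (0.86 to 0.98) in siCtrl, and in the authors' deposited table its Bayes factor, 7.76, was below 10. No read skipped it in either file, and there were 13203 reads compatible with both isoforms in siSNRPB2 against 15876 in siCtrl. The 36-nt coding exon of SRSF7 at chr2:38746144-38746179 had a ψ of 0.95 (0.94 to 0.97) in siSNRPB2 and 0.98 (0.97 to 0.99) in siCtrl. Exclusion-only reads of this SRSF7 exon numbered 27 in siSNRPB2 and 12 in siCtrl.

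**Figure D3:**
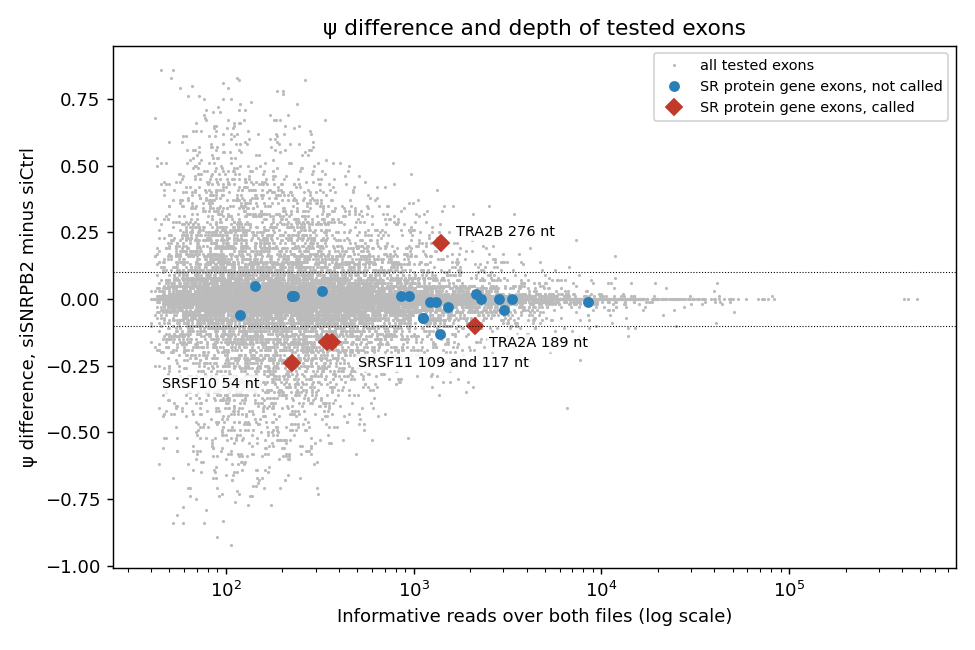
ψ difference, siSNRPB2 minus siCtrl (y axis), against informative reads over both files (x axis, log scale) for all 18682 tested exons (grey), the 20 exons of SR protein genes that were not called (blue) and the 5 that were (red). Dotted lines mark differences of 0.1 either way, and only the TRA2B 276-nt exon is a red point above 0.

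The exons differed from each other in sequence. GAA, the trimer that TRA2 proteins bind, was counted on the RNA strand in the 25 exons with an exact GENCODE match and in 18033 tested exons of all genes. It occurred 10.1 times per 100 nt in the TRA2B 276-nt exon and 10.6 times in the TRA2A 301-nt exon, against a median of 2.08 and a 90th percentile of 4.76 over all tested exons. GC content of these 2 exons was 32.6% and 30.2%, against a median of 49.2%. Their longest identical stretch was 12 bases.

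By contrast, the 9 exons of the strict class had 0 to 2.17 GAA per 100 nt, and the SRSF11 109-nt and 117-nt exons 1.83 and 2.56. High GAA density was not limited to TRA2 genes. The SRSF11 33-nt exons had 9.09 (the one with too few reads) and 6.06 (the tested one), with a GC content of 33.3% and 30.3%. The TRA2B exon, which was higher in siSNRPB2, and the TRA2A exon, which was not called, were thus equally rich in GAA. A count of trimers is a description of the exon and not of binding.

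**Figure D4:**
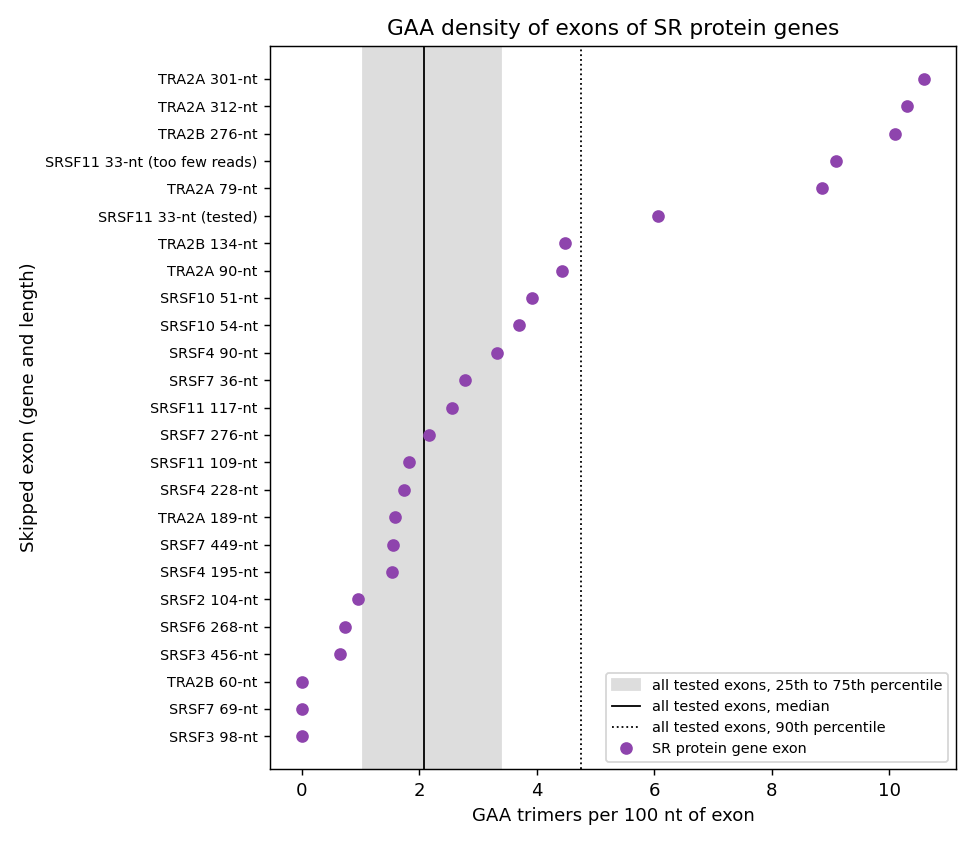
GAA trimers per 100 nt (x axis) in 25 exons of SR protein genes (points, 1 row per exon), with the median (solid line), the range between the 25th and 75th percentile (grey) and the 90th percentile (dotted line) over 18033 tested exons. The TRA2A 301-nt, 312-nt and TRA2B 276-nt exons have over 10 GAA per 100 nt.

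Some reads match neither the isoform with the exon nor the one without it, and these do not enter ψ. They can be intronic or come from other forms of the exon, and the files do not separate these. Relative to compatible reads, they were fewer in siSNRPB2 for 16 of the 25 exons, against 38.2% of all tested exons, with a median log2 ratio of -0.13 against 0.13. Several of the 25 exons are forms or neighbours in one region with nearly the same such reads, so they are not separate observations. The TRA2A 301-nt and 312-nt forms, for example, each had 2749 in siSNRPB2. The clearest case was SRSF7, where they made up 38.1% of reads in siSNRPB2 and 52.9% in siCtrl around the 276-nt poison exon. In SRSF6 they were 15.1% in siSNRPB2 and 19.1% in siCtrl. Around the TRA2B 276-nt exon the order was reversed, with 72.5% in siSNRPB2 and 69.5% in siCtrl. Around the SRSF11 109-nt exon they were 64.7% in siSNRPB2 and 66.8% in siCtrl. The part of such reads in the ψ values was not tested.

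Gene levels were followed through compatible reads on the deepest event of each gene, as RPM, reads scaled to a common total over 1 event per gene. In bulk RNA of this kind, a change in the number of cells and in RNA per cell cannot be told apart. None of the 9 genes differed by 1.5-fold or more, as did 3.21% of 3427 genes with at least 1000 reads. TRA2A was 288.2 RPM in siSNRPB2 and 201.7 in siCtrl, a log2 ratio of 0.51, and TRA2B 213.5 and 281.8, a log2 ratio of -0.40. The other 7 genes lay between -0.15 (SRSF10) and 0.11 (SRSF7). SRSF11, whose 109-nt and 117-nt exons were lower, was at 0.10, from 92.2 RPM in siSNRPB2 and 85.9 in siCtrl.

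These gene ratios depend on the event. Over the 9 events of TRA2A the log2 ratio ranged from -0.36 to 0.51, over the 3 of TRA2B from -0.40 to 0.29, and over the 6 of SRSF11 from -0.87 to 0.10. It ranged from 0.11 to 0.38 over the 4 of SRSF7 and from -0.36 to -0.10 over the 3 of SRSF4. Summed over all events of a gene, the log2 ratio was 0.18 for TRA2A, -0.23 for TRA2B and -0.03 for SRSF11. SRSF11 thus changed sign, and SRSF7, at 0.24 by this sum, lay above TRA2A. The sums include the deepest event, so the signs that TRA2A and TRA2B kept, at a smaller size, are no separate support. For TRA2A the deepest event was that of the 189-nt exon, with 4728 compatible reads in siSNRPB2 and 3737 in siCtrl. It gave the highest ratio of the 9 events.

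Genes that act with SR proteins were counted by the same rule. Of other SR and SR-like genes, 19 of 22 had an event, and 2 of 43 exons were called lower and 2 higher. THRAP3, an SR-related coactivator, had a 132-nt exon lower at a ψ of 0.18 (0.1 to 0.28) in siSNRPB2 and 0.53 (0.39 to 0.67) in siCtrl. SREK1, a splicing regulatory SR-like protein, had a 2868-nt exon lower at 0.22 in siSNRPB2 and 0.33 in siCtrl. Its informative reads ran the other way, with 1560 inclusion-only and 22 exclusion-only in siSNRPB2, against 1629 and 45 in siCtrl. ACIN1, a component of exon junction-associated complexes, had a 62-nt exon higher at 0.45 in siSNRPB2 and 0.29 in siCtrl and a 120-nt exon higher at 0.24 and 0.13.

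Among the kinases and importers that phosphorylate and carry SR proteins into the nucleus, 1 of 21 exons was called lower and 1 higher. The exon of CLK2, a kinase of SR proteins, was an 88-nt exon at a ψ of 0.38 (0.3 to 0.47) in siSNRPB2 and 0.61 (0.53 to 0.71) in siCtrl. Its lower ψ was not matched by the share of informative reads, which were 75 inclusion-only and 5 exclusion-only in siSNRPB2, against 170 and 13 in siCtrl. A slightly shorter tested form of this CLK2 exon, at chr1:155268708-155268792, had a ψ difference of 0.07, in the other direction, and was not called. A 67-nt exon of CLK3, of the same family, was higher at 0.28 in siSNRPB2 and 0.11 in siCtrl, and no read skipped it in either file.

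NMD and exon junction factors had 1 of 27 exons called lower and 3 higher. MAGOHB, a core protein of the exon junction complex, had a 164-nt exon at a ψ of 0.5 (0.41 to 0.59) in siSNRPB2 and 0.17 (0.13 to 0.22) in siCtrl, and an overlapping 339-nt form at 0.31 and 0.11. SMG5, an NMD factor, had a 172-nt exon lower at 0.49 in siSNRPB2 and 0.65 in siCtrl, although 0 reads skipped it in siSNRPB2 and 3 in siCtrl. A shorter overlapping form, at chr1:156266541-156266678, had a ψ difference of -0.02 and was not called. It had 1363 informative reads over both files, against 917 for the 172-nt form. The called shares of the 3 groups, 9.30%, 9.52% and 14.8%, stand against 14.7% of all tested exons.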

How the data were processed

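Total RNA of 4 libraries was sequenced, 2 per group. The submitters' processing notes name STAR 2.7 and the build hg38. The authors deposited ψ of skipped exons as a fraction from MISO, per the file headers, with an interval and read numbers per class of compatibility. The deposited comparison gives the ψ difference, a signed score, and the Bayes factor, a ratio of evidence. Not given in the sources used here are the MISO version, the event annotation, the interval's level and any merging of libraries. The group of each file is that in its name.

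For each skipped exon the event with the most informative reads was kept, with at least 20 in each file. Events were matched to GENCODE release 29 by exon boundaries on the same strand. Exon sequences came from its transcripts. Gene reads used a pseudocount of 1 RPM and at least 20 reads on average. Exact binomial intervals (95%, Clopper-Pearson) cover counting error only. Depth sets the width of the ψ intervals, whose median over all events of a file was 0.07 in siSNRPB2 and 0.06 in siCtrl.

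The members and gene lists were chosen with earlier results of these data known. Named are all 10 genes, every exon of the strict class, every called exon, the exon with most informative reads of each gene and those just outside a threshold. In the other lists the called exons are named, except 1 that is not reported here, and 2 exon sequences are likewise not reported here. The code of the calling step was tested on simulated read shares with a stand-in for the Bayes factor. That test simulated neither ψ nor the authors' Bayes factor, so it does not check the calls given here. Scripts ran under Python 3.11.15 with pandas 2.3.3, numpy 2.4.6 and scipy 1.17.1, and matplotlib 3.10.9 drew the figures.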

Additional observations from a re-analysis of the deposited data

How the results depend on the processing

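No paired analysis was possible because the files hold 1 value per group, and for the same reason no replicate could be left out. The alternatives changed the Bayes factor, the ψ difference, the read minimum, the choice of event, the demand for exclusion-only reads and the estimator, 1 at a time. With a minimum ψ difference of 0.2, 1 exon of SR protein genes was called lower instead of 4, 1 exon of other SR genes was called instead of 4, and 1 of the kinases instead of 2. The kinases also had 1 called exon with a Bayes factor of at least 20 or with at least 50 informative reads. With the median over all events, 2 exons of SR protein genes were called higher instead of 1, the added one being the TRA2A 79-nt form. Taking as the strict class the 16 exons with no coding part in a protein-coding transcript gave 2 lower calls instead of 0, both in SRSF11. The TRA2A 189-nt exon reversed when ψ was replaced by the share of inclusion-only reads, to 0.011, or to 0.021 with inclusion-only reads divided by 2. By the same share, undivided, the other called exons kept their direction but not their size: -0.31 and -0.353 for the SRSF11 109-nt and 117-nt exons, -0.088 for the SRSF10 54-nt exon and 0.028 for the TRA2B 276-nt exon, against -0.16, -0.16, -0.24 and 0.21 by ψ. Exons that were not called could also depart from ψ by this share. It was 0.12 against 0.03 by ψ for the SRSF7 69-nt exon and 0 against -0.13 for the SRSF4 90-nt exon. Others changed little, such as the SRSF7 36-nt exon at -0.024 against -0.03. The other 53 alternative counts of called exons stayed within 1.5 times. The causes were not tested. Where no read skips the exon in either file, ψ rests on the spread of reads between exons. This held for 2 of the 25 tested exons (8.0%) and for 51.1% of all 18682 tested exons, so the background differs from the set here.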

Other observations

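Many skipped exons were measured by several events that differ in their flanking exons, and the answer can depend on which is taken. Of 1846 exons with 2 or more events that met the read minimum, the call differed between events in 402 (21.8%), and 4 were called lower by one event and higher by another. The ψ differences of the events lay at least 0.1 apart for 689 of these exons (37.3%). Of the exons of SR protein genes, 4 had several such events, and the call differed for 1, the TRA2A 79-nt form.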
